A study of Mus musculus with 12 samples.

Results

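Inflammasomes are protein platforms that myeloid cells assemble when a sensor in the cytosol meets a microbial product or a sign of damage. The genes described are the sensors Nlrp3, Nlrc4, Nod1, Nod2 and Aim2, the adaptor gene Pycard (its protein is ASC), the inflammatory caspase genes Casp1 and Casp4 (whose mouse protein is often called caspase-11), and the pore-forming effector gene Gsdmd. Each was read through a probe set that the platform annotation pairs with that symbol alone, and where several did so, through the one with the highest mean over the 12 arrays. All 9 genes were found among the 22180 genes measured, and 2 of them, Gsdmd and Nod2, had a second probe set. Signals are given on the log2 scale, so that a difference of 1 is a doubling. Levels of different genes cannot be set against each other, because each probe set has its own brightness.

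In dendritic cells and macrophages the pathway is commonly described in 2 steps. A first signal such as lipopolysaccharide (LPS), a component of the outer membrane of Gram-negative bacteria sensed by Toll-like receptor 4, raises transcription of the sensor NLRP3 and of the cytokine precursors. A later trigger lets the sensor recruit ASC and caspase-1, which matures IL-1β and IL-18 and cleaves gasdermin D, and the pores formed by gasdermin D can end in pyroptotic death. Caspase-11 binds LPS that has reached the cytosol and cleaves gasdermin D directly, while NOD1 and NOD2 sense fragments of bacterial peptidoglycan and signal mainly through the kinase RIPK2 and NF-κB, not through an inflammasome.

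The cells were bone marrow-derived dendritic cells of 8-week-old mice on the C57BL/6 background, all labelled male, cultured in GM-CSF (20 ng/ml) and harvested on day 7. They came from Arc/Arg3.1 –/– mice or from wildtype (+/+) mice. Arc is known mostly for its part in synaptic plasticity, and the series title ties it to the migration of dendritic cells. Treatment was medium alone or LPS (100 ng/ml) over 30 min, followed by washing and 1 h in fresh medium. The groups are wildtype in medium, wildtype after LPS, knockout in medium and knockout after LPS, with 3 arrays each. The labels call the arrays biological replicates but do not name separate animals, and the p-values therefore reflect only the spread among these samples, which may be technical. The knockout removes Arc from the whole animal as far as the labels say, and whether its probe set lies in the deleted stretch was not analysed here. These are bulk samples, so fewer cells of a type and less RNA per cell cannot be told apart.

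Several arrays stood apart. The 3 arrays of wildtype cells in medium differed from each other with an SD of 0.105 to 0.108 over the 6440 genes of mean log2 signal above 8, against 0.193 to 0.438 for the 9 other pairs within a group, and were counted as 1 sample by their mean, which leaves 10 samples. The LPS arrays of replicates 2 and 3 in both genotypes, 4 in all, had a median log2 signal of 9.73 to 9.87 over 78 small RNA genes, against 10.44 to 11.04 on the other 8. The mean of 3 Y-linked genes was 8.83 to 9.24 on 3 arrays (knockout in medium 2, knockout LPS 2 and wildtype LPS 1) and 3.99 to 4.58 on the other 9, although all animals are labelled male. Arc itself separated the genotypes, with 9.21 to 9.62 on wildtype arrays (6) and 7.68 to 8.05 on knockout arrays (6). Its difference over both treatments was -1.49 (SE 0.12, limma adjusted p = 0.00151), and after LPS -1.50 (adjusted p = 0.00591). In medium alone it was -1.48 and did not pass (adjusted p = 0.177).

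The promoters of the 3 genes that passed the LPS test in at least 1 genotype are shown because NF-κB is the best known transcription factor downstream of LPS. Sequences are the 250 bases before the annotated start, from RefSeq on GRCm38.p6, written 5′ to 3′ on the strand of the gene, with capitals for matches to the NF-κB consensus on either strand. The table held 8 of the 9 genes with 11 starts, and no start of Gsdmd. The window of Nlrp3 is chr11:59541319-59541568 on the plus strand, that of Casp4 is chr9:5308599-5308848 on the plus strand, and that of Pycard is chr7:127993868-127994117 on the minus strand.
Nlrp3: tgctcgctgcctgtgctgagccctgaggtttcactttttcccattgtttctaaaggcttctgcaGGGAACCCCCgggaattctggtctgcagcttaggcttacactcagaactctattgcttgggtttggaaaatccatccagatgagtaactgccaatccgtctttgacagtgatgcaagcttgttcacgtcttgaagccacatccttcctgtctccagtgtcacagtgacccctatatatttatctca
Casp4: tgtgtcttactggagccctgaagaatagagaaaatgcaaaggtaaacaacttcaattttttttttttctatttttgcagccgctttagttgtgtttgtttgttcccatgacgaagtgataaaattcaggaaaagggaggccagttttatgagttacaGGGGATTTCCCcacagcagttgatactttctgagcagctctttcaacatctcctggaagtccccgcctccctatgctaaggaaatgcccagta
Pycard: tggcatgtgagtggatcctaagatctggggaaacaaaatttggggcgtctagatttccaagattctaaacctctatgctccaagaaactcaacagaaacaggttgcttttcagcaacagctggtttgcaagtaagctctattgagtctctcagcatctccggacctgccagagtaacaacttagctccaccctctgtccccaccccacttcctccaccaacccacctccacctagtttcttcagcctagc

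The Nlrp3 window held 1 match, at bases -186 to -177 from the start, and the window of a second annotated Nlrp3 start held none. Of these 2 Nlrp3 windows, the one with the match is shown. The Casp4 window held 2 overlapping matches at bases -93 to -83, and from a second annotated Casp4 start the same bases lie at -104 to -94. The Pycard window held no match, which says only that these letters are not in that window. Among all 32851 windows of this length, 3.90% held an NF-κB match, and of the 8 genes searched Nlrp3 and Casp4 did. Gsdmd was not searched. The shares count windows, while a gene counts if any of its windows held a match. The interferon-stimulated response element GAAANNGAAA was in 2.98% of all windows and in none of the genes searched, and the AP-1 element TGANTCA in 6.75% and in none. The interferon-gamma-activated site TTCNNNGAA was in 7.02% of all windows and, of the genes searched, in Nod1 alone. A match is a description of letters and not a bound site.

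**Figure D1:**
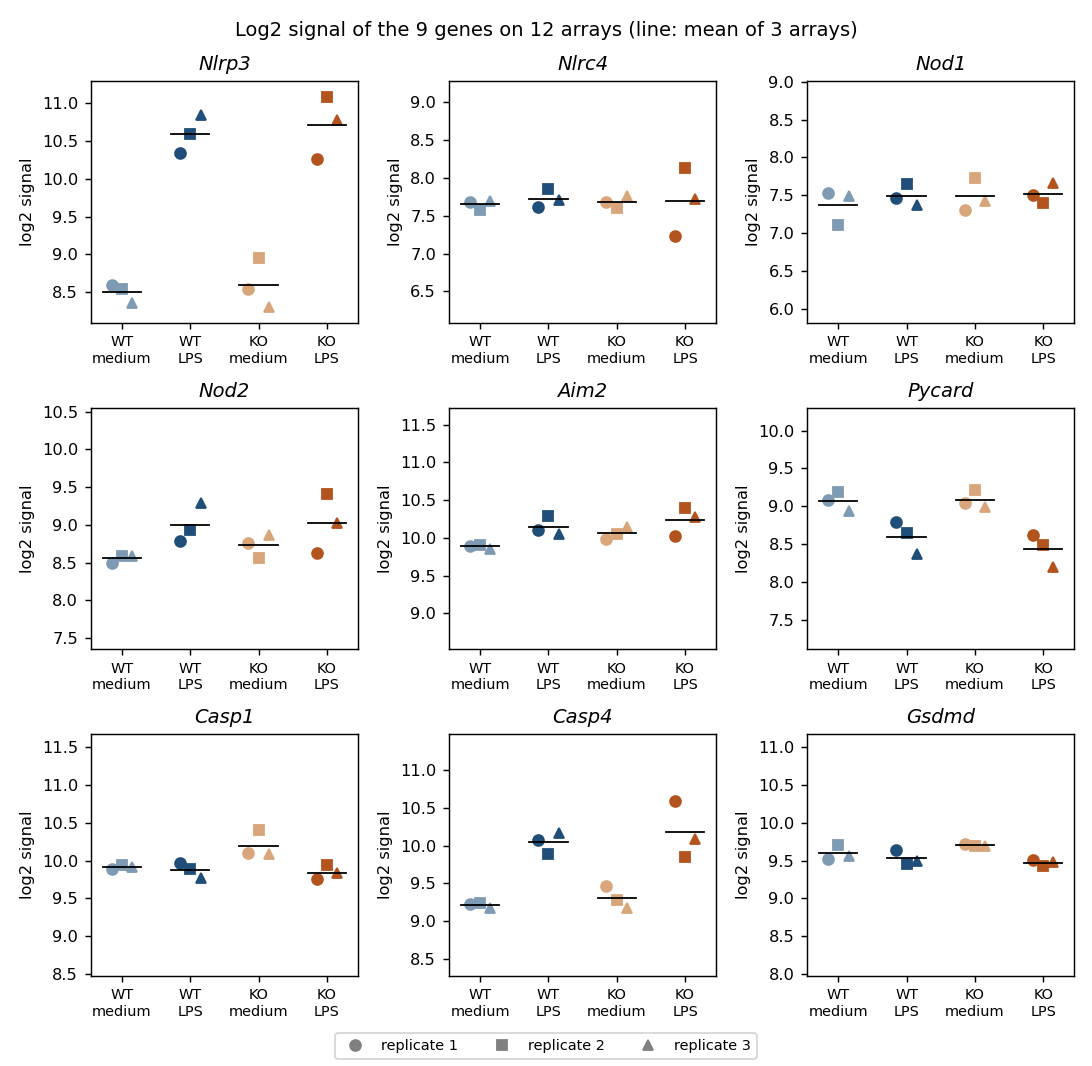
Log2 signal (vertical axes) of the 9 genes on each of the 12 arrays, by group (horizontal axes, WT wildtype and KO Arc knockout), with symbols for replicate numbers and a line for the mean of 3 arrays. Nlrp3 and Casp4 are above their medium arrays on all LPS arrays of both genotypes, Pycard is below them, and the other 6 genes overlap in at least 1 genotype.

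LPS raised Nlrp3 about 4-fold in both genotypes, and it was the only one of the 9 genes to pass the test in both. In knockout cells Casp4 also rose, 1.83-fold, and Pycard fell 1.57-fold. Their wildtype differences went the same way, 1.78-fold higher and 1.39-fold lower, and did not pass. Nlrc4, Nod1, Nod2, Aim2, Casp1 and Gsdmd passed in neither genotype. In wildtype cells 1 of the 9 genes was called higher and 0 lower, where 1.57% of all genes were called (1.34% higher, 0.234% lower). In knockout cells 2 of the 9 were called higher and 1 lower, where 5.91% of all genes were called (2.98% higher, 2.93% lower). These shares moved with single arrays. In wildtype cells 0.83% of all genes were called without wildtype LPS replicate 3 and 1.04% without knockout LPS replicate 3. Without knockout LPS replicate 1 or 2 it was 2.04% or 2.01%. In knockout cells 2.77% were called without knockout LPS replicate 3, 2.96% without medium replicate 3, 3.32% without medium replicate 1 and 3.44% without medium replicate 2. Without knockout LPS replicate 2 it was 7.52%. The wildtype comparison has the wider intervals, since its medium group counts as 1 sample, which over all genes reach a median of ±0.42, against ±0.30 in knockout cells. With the 12 arrays taken as separate samples, 2 of the 9 were called in wildtype cells (Nlrp3 and Casp4; 8.64% of all genes) and 3 in knockout cells (9.11%). The median difference over the 9 genes was 0.12 in wildtype and 0.04 in knockout cells, beside -0.01 and -0.00 over all genes.

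Among the sensors, Nlrp3 encodes the receptor that responds to potassium efflux, crystals and many other triggers. In wildtype cells it had log2 signals of 8.60, 8.54 and 8.36 in medium and 10.35, 10.59 and 10.85 after LPS. The knockout arrays had 8.54, 8.95 and 8.30 in medium and 10.27, 11.08 and 10.77 after LPS. Every LPS array was above every medium array by more than a doubling, and in both genotypes replicate 1 was the lowest LPS array. The change was 2.10 in wildtype cells (SE 0.32, 95% interval 1.40 to 2.80, 4.28-fold, limma adjusted p = 0.00864). In knockout cells it was 2.11 (SE 0.22, 95% interval 1.61 to 2.60, adjusted p = 0.000348).

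The wildtype call of Nlrp3 was lost when the 4 LPS arrays of low small RNA signal were left out, at 1.85 (adjusted p = 0.0890), a fit in which 1 LPS array per genotype remains. In knockout cells it passed in each of 23 other settings, with changes of 1.67 to 2.33. In 3 of these 23 a wildtype medium array was left out, which cannot alter a knockout LPS value, because those arrays enter as 1 mean.

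Nod2, the sensor of muramyl dipeptide, had 8.50, 8.58 and 8.59 in wildtype medium and 8.78, 8.94 and 9.29 after LPS. In knockout cells it had 8.76, 8.57 and 8.86 in medium and 8.63, 9.41 and 9.03 after LPS. The wildtype groups did not overlap, by a margin of less than the spread of the LPS arrays, and the knockout groups did. The differences were 0.45 (SE 0.28, 95% interval -0.16 to 1.05, limma adjusted p = 0.729) and 0.30 (SE 0.19, adjusted p = 0.439). In knockout cells the value turned to -0.09 without the arrays of low small RNA signal and to -0.0086 with them marked by a model term. The second Nod2 probe set gave 0.16 and 0.17, and passed in neither genotype (adjusted p = 0.905 and 0.432).

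Aim2 encodes a sensor of double-stranded DNA in the cytosol. It had 9.90, 9.91 and 9.86 in wildtype medium and 10.11, 10.29 and 10.05 after LPS, so the wildtype groups did not overlap. In knockout cells the values were 9.99, 10.05 and 10.14 in medium and 10.03, 10.39 and 10.28 after LPS, and overlapped. The differences of 0.26 (SE 0.17, limma adjusted p = 0.764) and 0.17 (SE 0.12, adjusted p = 0.477) did not pass. The knockout value was -0.03 when the arrays of low small RNA signal were left out.

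Nlrc4, which acts with NAIP proteins on bacterial flagellin and secretion systems, and Nod1, the sensor of diaminopimelic acid-type peptidoglycan, had overlapping groups in both genotypes. Nlrc4 lay between 7.58 and 7.85 on the 9 arrays other than those of knockout cells after LPS, where it was 7.23, 8.14 and 7.73. Its group of knockout LPS arrays thus held both its lowest and its highest value. Its LPS differences were 0.07 (SE 0.27) and 0.02 (SE 0.19), of which the knockout value was -0.45 without the arrays of low small RNA signal. Nod1 lay between 7.10 and 7.72 on all arrays, with differences of 0.12 (SE 0.19) and 0.04 (SE 0.13). For all 4 values limma's adjusted p was 0.920 or higher. The intervals for Nod1 run from -0.30 to 0.54 in wildtype and -0.26 to 0.33 in knockout cells, so changes within them are not detectable here.

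Pycard, whose product ASC links sensors to caspase-1, went the other way from Nlrp3. In wildtype cells it had 9.08, 9.19 and 8.94 in medium and 8.79, 8.64 and 8.36 after LPS. The knockout arrays had 9.05, 9.22 and 8.99 in medium and 8.62, 8.49 and 8.19 after LPS. All LPS arrays were below all medium arrays in both genotypes, and replicate 1 was the highest LPS array in each. The change in knockout cells was -0.65 (SE 0.15, 95% interval -0.97 to -0.33, limma adjusted p = 0.0264). In wildtype cells the difference was -0.47 (SE 0.21, 95% interval -0.93 to -0.01) and did not pass (adjusted p = 0.477).

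The Pycard call in knockout cells was made in 16 of the 23 other settings, among them the 3 that cannot alter it, with values from -0.74 to -0.46 and adjusted p from 0.00650 to 0.155. It was lost without knockout medium replicate 1 (-0.67), replicate 2 (-0.58) or replicate 3 (-0.70), and without knockout LPS replicate 3 (-0.53). It was also lost without the arrays of low small RNA signal and with a model term marking them (-0.46 each), and after another quantile normalization (-0.56).

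Of the inflammatory caspases, Casp4 encodes the sensor of cytosolic LPS. It had 9.23, 9.24 and 9.17 in wildtype medium and 10.08, 9.89 and 10.16 after LPS. Knockout cells had 9.47, 9.28 and 9.17 in medium and 10.59, 9.85 and 10.09 after LPS. Groups did not overlap in either genotype, and the single highest array was knockout LPS replicate 1. The change was 0.87 in knockout cells (SE 0.17, 95% interval 0.48 to 1.25, limma adjusted p = 0.0154). The wildtype difference was 0.83 (SE 0.25, 95% interval 0.29 to 1.38, 1.78-fold), of about the same size, and did not pass (adjusted p = 0.176).

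The wildtype difference of Casp4 passed with 12 separate samples (adjusted p = 0.00532) and without knockout LPS replicate 1 (0.0454), within a range of 0.00532 to 0.381 over 23 settings. The knockout call was lost without knockout medium replicate 2 (0.86, adjusted p = 0.0556) or replicate 3 (0.80, adjusted p = 0.0716), within a range of 0.00425 to 0.0716.

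Casp1 encodes the protease that matures IL-1β, and lies next to Casp4 on chromosome 9 with 0 coding genes between their starts. Its signals were 9.89, 9.95 and 9.91 in wildtype medium and 9.97, 9.89 and 9.77 after LPS, which overlap. In knockout cells they were 10.10, 10.40 and 10.08 in medium and 9.75, 9.94 and 9.83 after LPS, which do not. The differences were -0.04 (SE 0.17, limma adjusted p = 0.991) and -0.35 (SE 0.12, 95% interval -0.62 to -0.09, adjusted p = 0.123), and neither passed. The wildtype value was 0.05 without the arrays of low small RNA signal.

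Gsdmd, whose product forms the membrane pores of pyroptosis, had the narrowest groups in knockout cells, with 9.72, 9.70 and 9.69 in medium and 9.51, 9.43 and 9.48 after LPS. The wildtype arrays were at 9.52, 9.71 and 9.56 in medium and 9.64, 9.46 and 9.49 after LPS. The knockout groups did not overlap and the wildtype groups did. The differences were -0.23 (SE 0.10, 95% interval -0.44 to -0.02, limma adjusted p = 0.211) and -0.07 (SE 0.14, adjusted p = 0.980). The second Gsdmd probe set gave -0.21 (adjusted p = 0.386) and -0.15 (adjusted p = 0.943). Gsdmd lies on chromosome 15, as does Arc, with 35 coding genes between their starts.

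Counted by overlap alone, 4 of the 9 genes were higher on every LPS array than on every medium array in wildtype cells (Nlrp3, Nod2, Aim2 and Casp4) and 1 was lower (Pycard), where 16.2% and 13.9% of all genes did so. The 3 wildtype medium arrays were taken singly here, for all genes too, though the test counts them as 1 sample. In knockout cells 2 were higher (Nlrp3 and Casp4) and 3 lower (Pycard, Casp1 and Gsdmd), where 10.3% and 14.8% of all genes did so. At an unadjusted p under 0.05, 3 of the 9 stood in wildtype cells and 5 in knockout cells, where 9.91% and 20.3% of all genes did.

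**Figure D2:**
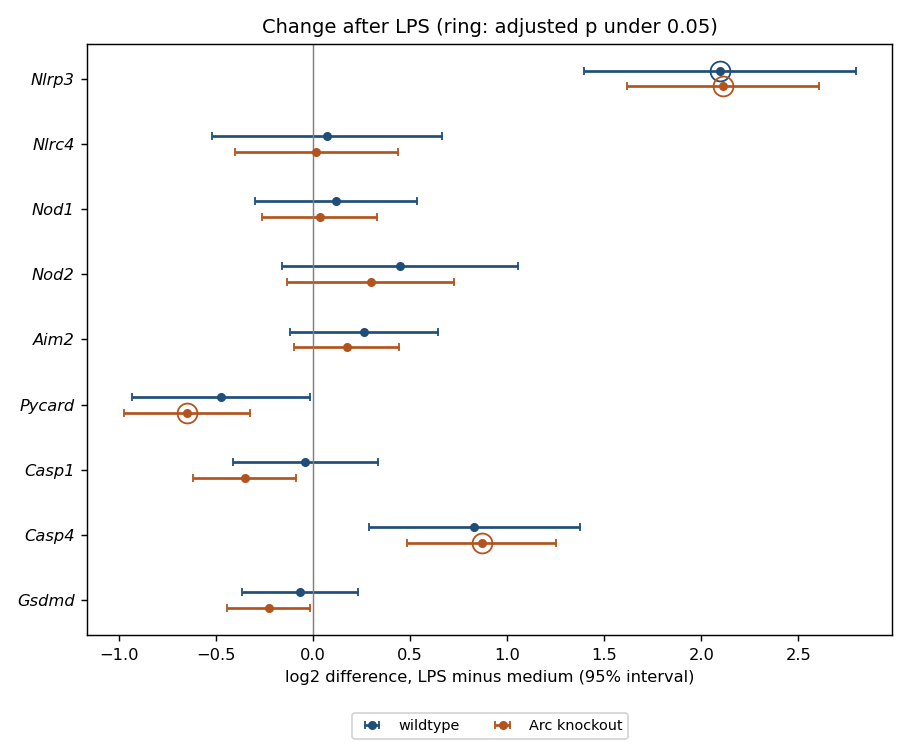
Log2 difference after LPS against medium (horizontal axis) of the 9 genes in wildtype and knockout cells, as points with 95% intervals from the limma fit on 10 samples, with rings where the adjusted p is under 0.05. Nlrp3 is ringed in both genotypes, at 2.10 and 2.11, and Casp4 and Pycard in knockout cells, at 0.87 and -0.65.

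**Figure D3:**
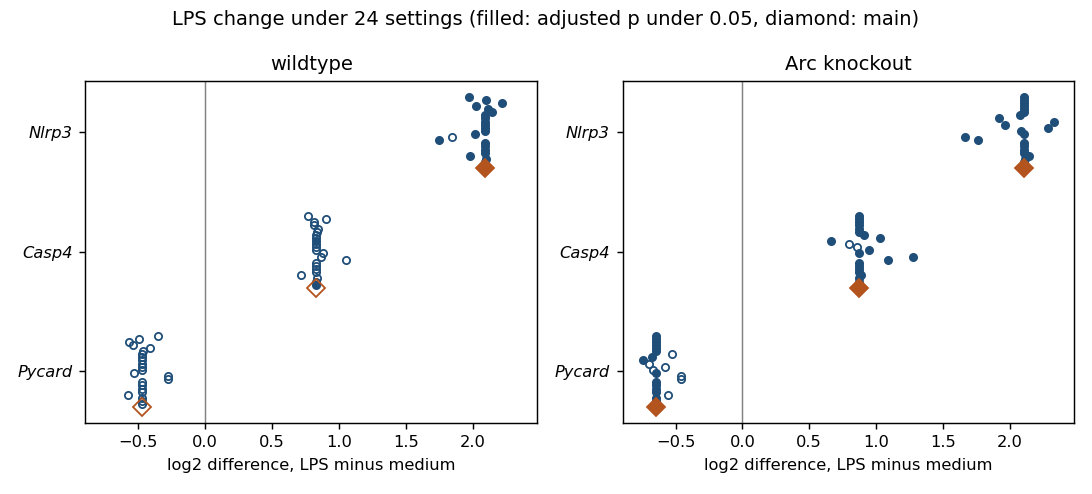
Log2 difference after LPS (horizontal axis) of Nlrp3, Casp4 and Pycard in wildtype (left) and knockout cells (right) under 24 settings each, filled where the adjusted p is under 0.05, with a diamond for the value in the text. The direction of each gene held in all settings shown, and calls varied for Casp4 and Pycard, and for Nlrp3 in wildtype cells.

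No difference between Arc knockout and wildtype cells was detected for any of the 9 genes. Limma called 0 of 9 in medium (0.00451% of all genes), 0 of 9 after LPS (0.00902%), 0 of 9 over both treatments (0.0135%) and 0 of 9 for the interaction, which asks whether the LPS change itself differs (0% of all genes). At an unadjusted p under 0.05 the count was 0 of 9 in each of these, with smallest p of 0.129, 0.289, 0.250 and 0.163, where 4.04%, 3.95%, 3.30% and 4.43% of all genes stood under 0.05. With 12 separate samples 0 of 9 were called as well, where 0.437%, 0.00902%, 0.0271% and 0.248% of all genes were.

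In medium the differences of the 9 genes ran from 0.01 (Pycard) to 0.28 (Casp1). The Casp1 value had an SE of 0.17, a 95% interval of -0.10 to 0.65 and an adjusted p of 0.970. Casp1 and Aim2 were higher on every knockout array in medium than on every wildtype one, where 17.7% of all genes were. That comparison again takes the wildtype medium arrays singly. The Aim2 difference was 0.17 (SE 0.17, 95% interval -0.21 to 0.55). After LPS the differences ran from -0.16 (Pycard, SE 0.15, 95% interval -0.49 to 0.16) to 0.13 (Casp4, SE 0.17, 95% interval -0.25 to 0.52), and all 9 genes overlapped, where 2.81% of all genes were higher without overlap and 4.96% lower. Over both treatments they ran from -0.07 to 0.13. The medians over the 9 genes were 0.10 in medium and 0.02 after LPS, beside 0.02 and -0.02 over all genes.

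For the LPS change itself, knockout minus wildtype, the values ran from -0.31 (Casp1, SE 0.21, 95% interval -0.77 to 0.15, limma adjusted p = 0.948) to 0.04 (Casp4, SE 0.30, 95% interval -0.63 to 0.70). For Nlrp3 it was 0.01 (SE 0.39, 95% interval -0.84 to 0.87). For Pycard it was -0.18 (95% interval -0.74 to 0.38). That Casp4 and Pycard passed in knockout cells and not in wildtype cells is thus not shown to be a difference between genotypes.

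**Figure D4:**
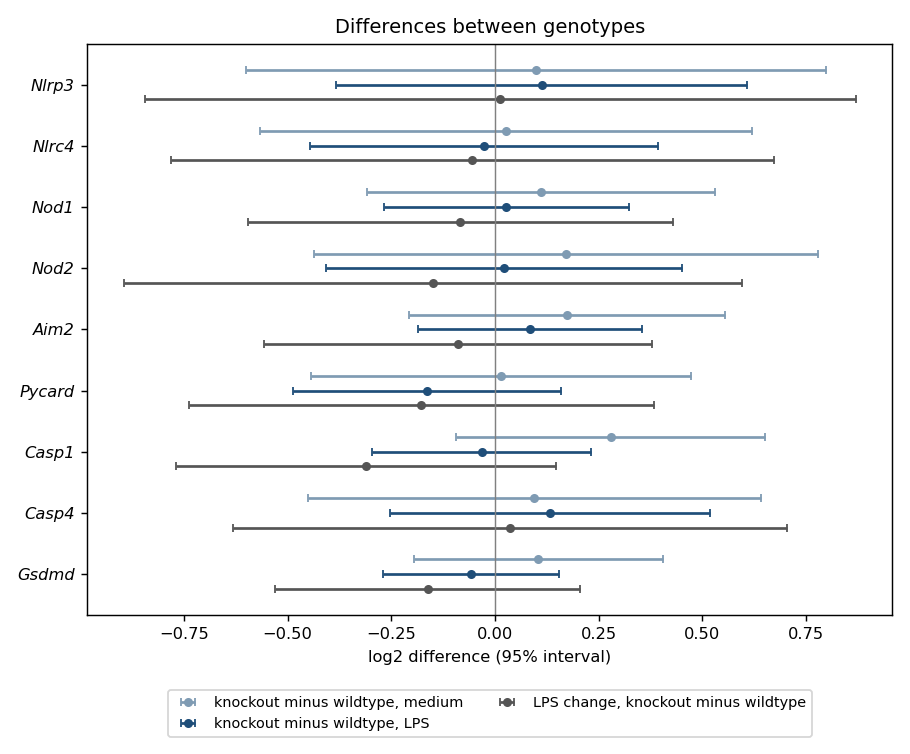
Log2 difference (horizontal axis) between knockout and wildtype cells in medium and after LPS, and between their LPS changes, for the 9 genes, as points with 95% intervals from the limma fit on 10 samples. Every interval shown includes 0, and the points run from -0.31 to 0.28.

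The 9 genes also varied among themselves. Over the 10 samples, which share the 4 groups, Pearson's r between Nlrp3 and Casp4 was 0.82, and between Nlrp3 and Pycard -0.88. Pycard, Casp1 and Gsdmd had r of 0.74 to 0.85 with each other. Nlrc4 had 0.71 with Nod2 and 0.67 with Aim2, and -0.31 with Casp4, while Nod1 had no r above 0.36 with any of the others. On the LPS arrays, replicate 1 of both genotypes had the lowest Nlrp3 and Nod2 and the highest Pycard and Gsdmd, and it is replicate 1 that had the high small RNA signal. The part of that signal in these differences was not tested beyond the fits with a term for it and without those arrays.

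The genes whose signal followed each of the 9 most closely over the 10 samples were taken as the 3 with the highest Pearson's r. For Nlrp3 these were Ccl3 (0.990), a chemokine gene, Tnf (0.988), which encodes tumour necrosis factor, and Cited2 (0.988). For Casp4 they were Rap1b (0.981), Nampt (0.974) and Icos (0.965). Pycard went with Actr6 (0.991), Vps35 (0.988) and Ciao2a (0.982), and Gsdmd with Paip2 (0.983), Batf3 (0.973) and Ptk6 (0.973). Casp1 went with Rpe (0.971), Rbm48 (0.967) and Magee1 (0.961), and Aim2 with Taf2 (0.984), Ptpn11 (0.973) and Blnk (0.973). Nod2 went with Braf (0.963), Tcf7l2 (0.963) and Tut7 (0.962), and Nlrc4 with Sh3bp2 (0.944), Rab3gap1 (0.936) and Nsun6 (0.935). The closest gene to Nod1, Pxdn, reached 0.890, the lowest closest match among the 9. With 22180 genes and 10 samples, values of this size are a description of likeness only.

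Beyond these genes, 72 others of the pathway were listed in 7 groups by role, and 63 were measured. After LPS 6 rose, 1 fell and 56 did not pass in wildtype cells (1.57% of all genes called, 1.34% higher and 0.234% lower). In knockout cells 9 rose, 6 fell and 48 did not pass (5.91%, of which 2.98% higher and 2.93% lower). These shares also stand beside the counts of each list below. Their median differences were -0.04 and -0.03. Between genotypes, 0 of 63 passed in medium, after LPS, over both treatments or for the interaction, with 1, 3, 5 and 0 at an unadjusted p under 0.05, where 4.04%, 3.95%, 3.30% and 4.43% of all genes stood. Those not analysed here include Ripk2, the kinase of NOD signalling, and Naip1, Ifi203, Ifi211, Card8, Gbp2 and Irgb10.

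The effector and substrate genes held the largest changes, with medians of 0.03 and 0.11. In wildtype cells 3 of 13 were higher (1.34% of all genes) and in knockout cells 4 of 13 (2.98%), with 0 lower in either. Il1b, the main cytokine precursor cut by caspase-1, had 10.43, 10.48 and 10.48 in wildtype medium and 12.82, 12.88 and 13.02 after LPS. Knockout arrays showed 10.58, 9.15 and 9.52 in medium and 13.07, 13.10 and 13.05 after LPS. All 6 LPS arrays were close to each other, and the spread lay in the knockout medium arrays. The changes were 2.44 (SE 0.40, limma adjusted p = 0.0131) and 3.32 (SE 0.28, adjusted p = 7.66e-05). The difference between these changes was 0.88 and did not pass (SE 0.48, adjusted p = 0.948). Il1a, which encodes the related cytokine IL-1α, rose by 4.68 (SE 0.39) and 4.32 (SE 0.28). Irf1, a transcription factor known to act on inflammasome genes, rose by 1.13 (SE 0.22) and 1.20 (SE 0.16). Il18, named after its values were seen as the other substrate of caspase-1, had differences of -0.46 (adjusted p = 0.445) and -0.44 (adjusted p = 0.0910), which did not pass. Ninj1, which encodes the protein that ruptures the membrane late in lytic death, passed in knockout cells (0.51, SE 0.12, adjusted p = 0.0334) and not in wildtype cells (0.64, SE 0.17, adjusted p = 0.123), and was also named after its values were seen. Casp12, Gsdma and Gsdmc were dimmer in each group than the median of unannotated probe sets.

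Among other NLR sensors, 0 of 15 passed in wildtype cells and 1 of 15, lower, in knockout cells, with medians of -0.07 each. That gene was Naip2, which encodes a receptor that brings bacterial secretion system proteins to NLRC4. Its signals were 9.26, 9.17 and 9.40 in knockout medium and 8.47, 8.64 and 8.53 after LPS, a change of -0.73 (SE 0.13, limma adjusted p = 0.00782). Wildtype arrays lay at 9.08, 9.38 and 9.21 in medium and 8.54, 8.85 and 8.41 after LPS, without overlap, and the difference of -0.62 did not pass (SE 0.18, adjusted p = 0.168). Nlrp6, Nlrp2, Nlrp4a, Nlrp9b and Nlrp14 were dimmer in all groups than the median of unannotated probe sets.

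Among sensors of other families, 1 of 4 rose in each genotype, with medians of -0.08 in wildtype and 0.20 in knockout cells. It was Ifi205, of the same DNA-sensor family as Aim2, at 1.96 (SE 0.38, limma adjusted p = 0.0334) and 1.87 (SE 0.27, adjusted p = 0.00246). Ifi205 has close paralogs, between which probe signal may be shared.

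Adaptors, kinases and ubiquitin enzymes had 1 of 13 higher in wildtype cells, and 3 higher and 1 lower in knockout cells, with medians of 0.00 and 0.01. Tnfaip3, which encodes the ubiquitin-editing inhibitor A20, rose by 1.94 (SE 0.19) and 2.06 (SE 0.13), with limma adjusted p = 0.000562 in wildtype cells. In knockout cells Erbin, whose product binds NOD2, rose by 0.59 (SE 0.12, limma adjusted p = 0.0141), and its wildtype difference of 0.60 did not pass (SE 0.16, adjusted p = 0.132). Tab3, named after its values were seen, rose by 0.38 in knockout cells (adjusted p = 0.0485), and its wildtype difference of 0.56 did not pass (adjusted p = 0.0948). Brcc3, which encodes a deubiquitinase acting on NLRP3, was lower in knockout cells (-0.55, SE 0.13, adjusted p = 0.0313), beside -0.36 in wildtype cells (adjusted p = 0.593).

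Of 6 ion channels and triggers upstream of NLRP3, 1 fell in each genotype, with medians of -0.11 and -0.27. It was Txnip, which encodes a thioredoxin-binding protein reported to bind NLRP3, at -0.99 (SE 0.20, limma adjusted p = 0.0380) and -0.996 (SE 0.14, adjusted p = 0.00225). Of 7 guanylate-binding and immunity-related GTPases, a set of interferon-induced proteins, 0 passed in wildtype cells and 2 fell in knockout cells. They were Irgm2 (-0.98, SE 0.14, adjusted p = 0.00238) and Igtp (-0.61, SE 0.15, adjusted p = 0.0413), and the medians of the group were -0.13 and -0.47. Their wildtype differences were -0.85 (adjusted p = 0.0675) and -0.13 (adjusted p = 0.975). Of 5 peptide transporters that carry NOD ligands, Slc15a3 rose in both genotypes, by 1.12 (SE 0.23, adjusted p = 0.0432) and 0.94 (SE 0.16, adjusted p = 0.00734). Slc46a3 fell in knockout cells (-0.63, SE 0.15, adjusted p = 0.0282), beside -0.43 in wildtype cells (adjusted p = 0.554), and the medians were 0.56 and 0.18.

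Each of the 9 arrays other than those of wildtype medium was left out in turn. The calls of Tnfaip3, Il1a and Il1b held in all 9 refits in both genotypes. In knockout cells those of Naip2, Ifi205, Txnip, Irf1, Irgm2 and Slc15a3 did too. In wildtype cells Ifi205 and Irf1 held in 5 of the 9, and Txnip and Slc15a3 in 3. In knockout cells Erbin held in 6, Slc46a3 in 4, Brcc3 in 3, Ninj1 in 2, Igtp in 1 and Tab3 in 0. The direction of these changes held in each refit. Counts of calls went from 7 to between 3 (without wildtype LPS replicate 3) and 8 in wildtype cells. In knockout cells they went from 15 to between 9 (without knockout medium replicate 2) and 15.

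**Figure D5:**
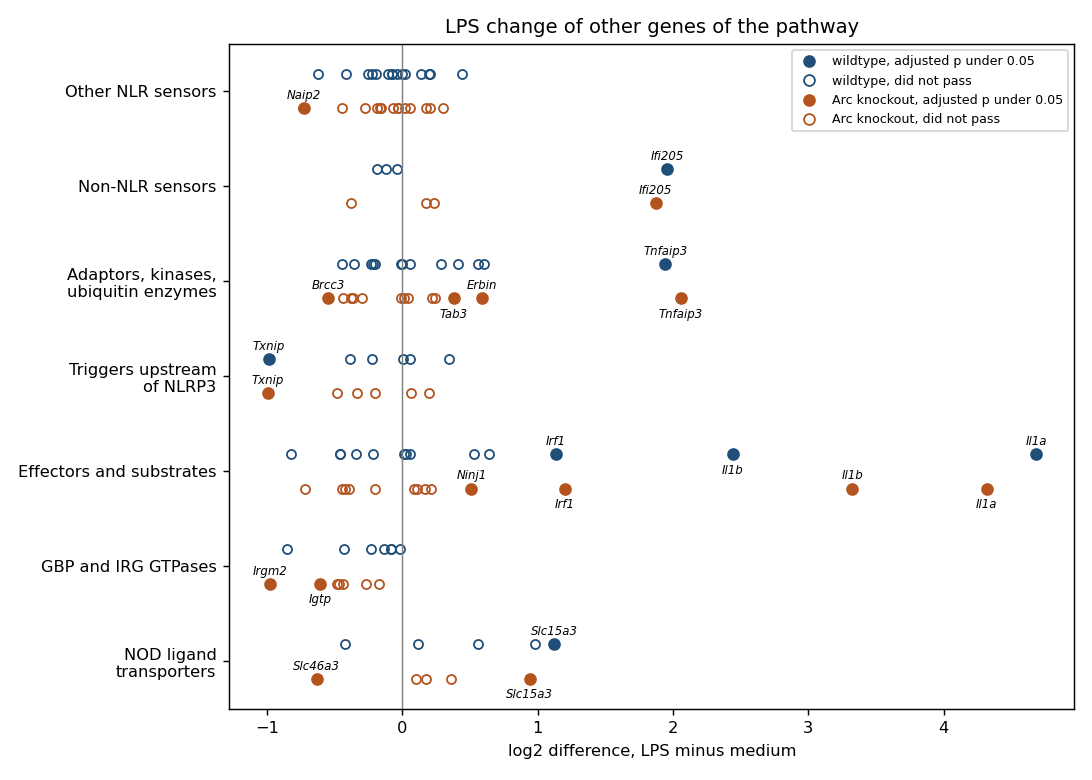
Log2 difference after LPS against medium (horizontal axis) of the 63 other pathway genes in their 7 groups, with wildtype values in the upper and knockout values in the lower row of each group, filled and named where the adjusted p is under 0.05. Il1a, Il1b, Tnfaip3 and Ifi205 lie farthest to the right in both genotypes, and Txnip and Irgm2 are the lowest called.

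Markers of cell types were read beside these values, since GM-CSF cultures can hold several myeloid types. Dendritic cell markers had an array mean over 9 genes of 10.93 to 11.03 in wildtype medium and 11.22 to 11.31 after LPS, and 11.05 to 11.16 and 11.18 to 11.36 in knockout cells. Brightness of a list does not give the share of a cell type. Of the 9, 2 were higher after LPS in wildtype and 3 in knockout cells by the limma test, with 0 lower and medians of 0.16 and 0.14. Over all genes 1.34% and 2.98% were called higher and 0.234% and 2.93% lower, shares that also stand beside the other marker counts. Zbtb46 rose by 0.88 and 0.67 and Cd86, an activation marker, by 0.87 and 0.86. Irf4 rose by 0.58 in knockout cells, beside 0.63 in wildtype cells, which did not pass. Flt3 (-0.41 and -0.39) and Ciita (-0.18 and -0.38) had differences below 0, and H2-Ab1 and H2-Aa lay between 0.06 and 0.09, none of which passed. These markers were named after their values were seen. Monocyte markers (5 genes) had array means of 9.94 to 10.06 in wildtype medium and 8.50 to 9.01 after LPS, and 9.65 to 9.92 and 8.27 to 8.85 in knockout cells, with 1 and 3 lower by the limma test. Neutrophil markers (10 genes) had 8.68 to 8.75 and 7.14 to 8.13 in wildtype, and 8.30 to 8.78 and 7.36 to 7.78 in knockout cells, with 1 and 5 lower. Macrophage markers (7 genes) had 10.76 to 10.80 and 10.39 to 10.54, and 10.61 to 10.82 and 9.87 to 10.71, with 0 and 1 lower.

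Of 5 mast cell and basophil markers, 1 (Hdc) was higher in knockout cells after LPS and 0 were called in wildtype cells. Of 3 eosinophil markers, 1 (Prg2) was lower in both genotypes. Of 3 B cell and 5 T and NK cell markers 0 were called, and Cd3e and Klrb1c were dimmer than the median of unannotated probe sets. No erythroid marker was analysed here. Array means of the monocyte and neutrophil markers were lower after LPS in both genotypes, as was Pycard, which passed in knockout cells alone. Not every marker fell alike: Mpo had -0.10 in wildtype and 0.24 in knockout cells, and Elane -0.17 and -0.13. The part of these cell types in the differences of the 9 genes was not tested. Between genotypes 0 markers of any list passed, in medium or after LPS.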

How the data were processed

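Total RNA of 12 samples was labelled with the Affymetrix WT PLUS kit, per the labels' protocols. The values are log2 signals as the authors deposited them, with 34390 probe sets on each array. They were normalized before deposit; how this and the background correction were done is not stated in the labels or the file, and the submitters' processing notes name limma alone. The platform annotation gives 1 gene for 23521 probe sets, several for 1814 and none for 9055; the brightest set per gene left 22180 genes. Precision is limited by the number of arrays.

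The members and lists were chosen with earlier results of these data known. Differences were fitted on the deposited log2 values in R 4.3.3 by limma 3.58.1 (group means through lmFit, then contrasts and eBayes, two-sided) over 10 samples, with the wildtype medium arrays averaged, and adjusted by Benjamini-Hochberg over 22180 genes with a threshold of 0.05. All groups shared 1 estimate of the spread, and the lone wildtype medium sample is assumed to vary like the others. The 6 contrasts were LPS in each genotype, knockout against wildtype in medium, after LPS and over both, and the interaction. The script was tested on simulated data.

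Named were all 9 genes, Arc, up to 3 called genes per pathway list and LPS contrast by size, and the 3 genes most correlated with each of the 9. The pathway lists were other NLR sensors, other sensors, adaptors and enzymes, triggers, effectors, GTPases and transporters, and the marker lists dendritic cell, macrophage, monocyte, neutrophil, mast cell and basophil, eosinophil, B cell, T and NK cell, and erythroid.

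Same-numbered arrays were checked for pairing by the correlation of their residuals. It was 0.381, 0.299 and 0.196 between the knockout groups, 0.338, 0.358 and 0.228 between the LPS groups, and 0.145, 0.196 and 0.175 between knockout medium and wildtype LPS arrays, so numbers paired these by the data. What a number stands for is not in the labels. The main fit has no term for the replicate number, and a block for it was run as another setting. For wildtype medium arrays the correlation with same-numbered arrays of the other groups ran from -0.053 to 0.113. Settings tried beside this were 11 others and 12 that leave out 1 array each.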

Additional observations from a re-analysis of the deposited data

How the results depend on the processing

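Over 23 other settings, 552 of 594 values kept their direction and side of the threshold. They cover 26 results of the 9 genes, namely all LPS changes and chosen ones between genotypes and for the interaction. Some could not change, such as knockout LPS values when a wildtype medium array is left out. Many others did not pass to begin with, so the share does not measure robustness. With 12 separate samples the count of the 9 genes called after LPS in wildtype cells was 2 in place of 1, and with the arrays of low small RNA signal left out it was 0. Leaving out 1 array gave counts of 1 to 2 in wildtype cells and 1 to 3 in knockout cells. The counts between genotypes and for the interaction were 0 in every setting run. With the replicate number as a block the counts were 1 and 3, and the block changed no call of the 9 genes. Calls over all 22180 genes went from 349 to 665 in wildtype and from 1311 to 2312 in knockout cells. In knockout cells the limma adjusted p with the block was 0.000157 for Nlrp3, 0.00512 for Casp4 and 0.00650 for Pycard. For Casp4 in wildtype cells it was 0.061, which did not pass. Of the other pathway genes, 7 were called in wildtype cells, against 18 with 12 samples, 4 with only the groups compared, 4 with a term for low small RNA signal and 1 without those arrays, where all genes called were 1917, 196, 252 and 76. The block gave 10. In knockout cells 15 were called, against 8 without those arrays (562 of all genes) and 21 with the block. Leaving out 1 array gave 3 to 8 and 9 to 15, where all genes called were 184 to 452 and 615 to 1667.

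The cause of the following reversals was not tested, and none of these values passed. With the small RNA term the LPS difference was -0.22 for Nlrc4 and 0.0092 for Gsdmd in wildtype cells, and -0.27 for Nlrc4 and -0.0086 for Nod2 in knockout cells. Without those arrays it was -0.032 for Nlrc4, 0.055 for Casp1 and 0.047 for Gsdmd in wildtype cells, -0.45 for Nlrc4, -0.095 for Nod2 and -0.032 for Aim2 in knockout cells, and the interaction of Nlrp3 was -0.18. The interaction of Pycard was 0.019 after quantile normalization once more, and that of Casp4 -0.016 with a term for Y-linked signal. Leaving out 1 array, values ran from -0.018 to 0.20 (Nod1) and -0.089 to 0.013 (Casp1) in wildtype cells, and from -0.054 to 0.16 (Nod1) and -0.20 to 0.25 (Nlrc4) in knockout cells. For the interaction they ran from -0.18 to 0.23 (Nlrp3) and -0.17 to 0.20 (Casp4), and for Casp4 after LPS between genotypes from -0.073 to 0.30.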
